A study of Mus musculus with 8 samples.

Results

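The genes described here were the lysosomal cathepsins Ctsa, Ctsb, Ctsc, Ctsd, Ctsh, Ctsk, Ctsl, Ctss and Ctsz and the related protease legumain (Lgmn), 10 of the 55450 genes in the deposited tables, taken by symbol. They were followed in single-cell RNA-seq of the liver of 8 wild-type C57BL/6 mice. The 2 control mice had normal diet and drinking water, the 3 HFD+F+CCl4 mice a high fat diet with fructose solution and carbon tetrachloride (CCl4), and the 3 WD+F+CCl4 mice a western diet with the same fructose and CCl4, all for 16 weeks. CCl4 is a liver toxin, and per the methods it was injected once a week, so that diet, fructose and CCl4 cannot be told apart as the source of any difference from control. The 6 mice of both treated groups are called NASH mice, after non-alcoholic steatohepatitis. Age and sex were not given in the labels.

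Lysosomes are the acidic compartments in which cells degrade what they take up and their own worn-out parts, and cathepsins are the proteases that do much of this work. They are made as inactive proenzymes, carried to the lysosome by mannose 6-phosphate and other sorting receptors, and activated there by removal of a propeptide. Macrophages, which clear dead cells and lipid, hold many of them, and in antigen-presenting cells cathepsin S, cathepsin L and legumain process antigens and the invariant chain of class II molecules. Secreted forms cut extracellular matrix, for which cathepsin K, the collagenase of osteoclasts, is best known.

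A barcode was kept with more than 500 genes and less than 25% mitochondrial UMIs (unique molecular identifiers, which count molecules), which left 80474 of 88581 barcodes. Cells were clustered without the 10 genes and without the genes of the lists compared with them below, except C1qa, C1qb and C1qc. These are also markers of the macrophage class. Clusters were named from markers of each cell type, which gave 22 classes. Levels are CPM, the UMIs of a gene in a class of 1 mouse after scaling the UMIs of all genes there to the same total in each sum. A 3′ UMI level is not scaled to gene length, and levels are compared between cells and mice, not between genes. Kept cells numbered 4168 to 11999 per mouse, and a kept cell had a median of 992.5 UMIs in control replicate 2, 2397 in control replicate 1 and 3159 to 4278 in NASH mice. The other clusters that could not be named held 20.2 to 52.7% of the cells of control mice and 1.99 to 8.47% of those of NASH mice. Cluster 10 held 0.312 to 0.380% of control cells and 1.05 to 11.6% of NASH cells. HFD+F+CCl4 replicate 1 stood apart, with clusters led by heat shock and immediate early genes that were mostly its cells. Any pair of libraries shared 8 to 46 barcodes. Macrophage classes (macrophage, lipid-associated macrophage, Kupffer cell and cycling macrophage) held 0.192 to 0.287% of control cells and 13.1 to 34.1% of NASH cells, so that within them control mice could not be tested.

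The promoters of the genes were looked up first, since lysosomal genes are known for the E-box letters CACGTG that TFEB and related factors bind, and myeloid genes for sites of the factor PU.1. RefSeq promoters (GRCm38.p6, 250 bases before to 50 after a transcription start) were found for 8 of the 10 genes, with 10 promoters in all. Ctsb and Ctsh had no entry. On both strands, CACGTG lay in promoters of 4 members (Ctsa, Ctsd, Ctsl and Lgmn) and in 7.15% of all 32851 promoters. The longer form TCACGTGA, which contains CACGTG, lay in promoters of Ctsa and Ctsd and in 0.974% of all promoters. The PU.1 core GAGGAAGT lay in promoters of Ctsc and Ctss and in 3.20% of all promoters. A match is a run of letters and was not tested as a binding site. The sequences below show those matches, in capitals, 5′ to 3′ on the strand of the gene. The PU.1 core reads there as its reverse complement.
Ctsd, chr7:142387828-142388077, minus strand, with sites starting 245 and 98 bases before the start: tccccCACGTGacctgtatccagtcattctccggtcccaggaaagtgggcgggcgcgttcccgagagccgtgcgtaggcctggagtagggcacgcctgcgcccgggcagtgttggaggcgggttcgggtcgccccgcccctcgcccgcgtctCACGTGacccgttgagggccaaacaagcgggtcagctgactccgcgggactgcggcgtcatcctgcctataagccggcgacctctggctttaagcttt
Ctsa, second promoter, chr2:164833523-164833772, plus strand, site 12 bases before the start: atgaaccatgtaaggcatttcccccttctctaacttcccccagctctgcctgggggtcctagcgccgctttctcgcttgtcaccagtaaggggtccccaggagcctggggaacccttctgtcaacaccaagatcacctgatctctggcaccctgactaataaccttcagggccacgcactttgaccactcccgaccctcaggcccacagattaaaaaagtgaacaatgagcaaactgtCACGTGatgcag
Ctsa, second promoter, chr2:164833766-164833795, plus strand, site 6 bases after the start: gatgcagatgctCACGTGaccagagctaca
Lgmn, second promoter, chr12:102439124-102439153, minus strand, site 49 bases before the start: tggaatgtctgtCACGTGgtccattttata
Ctsl, chr13:64370739-64370768, minus strand, site 236 bases before the start: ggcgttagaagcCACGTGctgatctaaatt
Ctss, chr3:95526773-95526802, plus strand, PU.1 core 2 bases before the start: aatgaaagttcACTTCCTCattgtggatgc
Ctsc, chr7:88277923-88277952, plus strand, PU.1 core 151 bases before the start: gtcactaactaACTTCCTCaggccacctcg

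In NASH mice, 7 of the 10 genes had their highest mean level in a macrophage class, Ctsh and Ctsl in plasmacytoid DCs and Ctsk in stellate cells. Lipid-associated macrophages, the Trem2+ Gpnmb+ cells of lipid-laden tissue, were the highest class for Ctsb, Ctsd, Ctss and Ctsz. Kupffer cells, the resident macrophages of the liver, were the highest for Ctsa, Ctsc and Lgmn. Hepatic stellate cells, in which Ctsk was highest, make collagen. The order of neighbouring classes was mostly within the spread of mice: of the 21 neighbouring pairs of each gene, 19 to 21 had overlapping ranges. Members together made up 3.12% ± 0.74 (SD, n = 3) of the UMIs of lipid-associated macrophages in HFD+F+CCl4 mice and 2.52% ± 0.30 (SD, n = 3) in WD+F+CCl4 mice. In classical monocytes of the same groups their share was 0.800% ± 0.069 and 0.856% ± 0.055 (SD, n = 3 each).

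**Figure D1:**
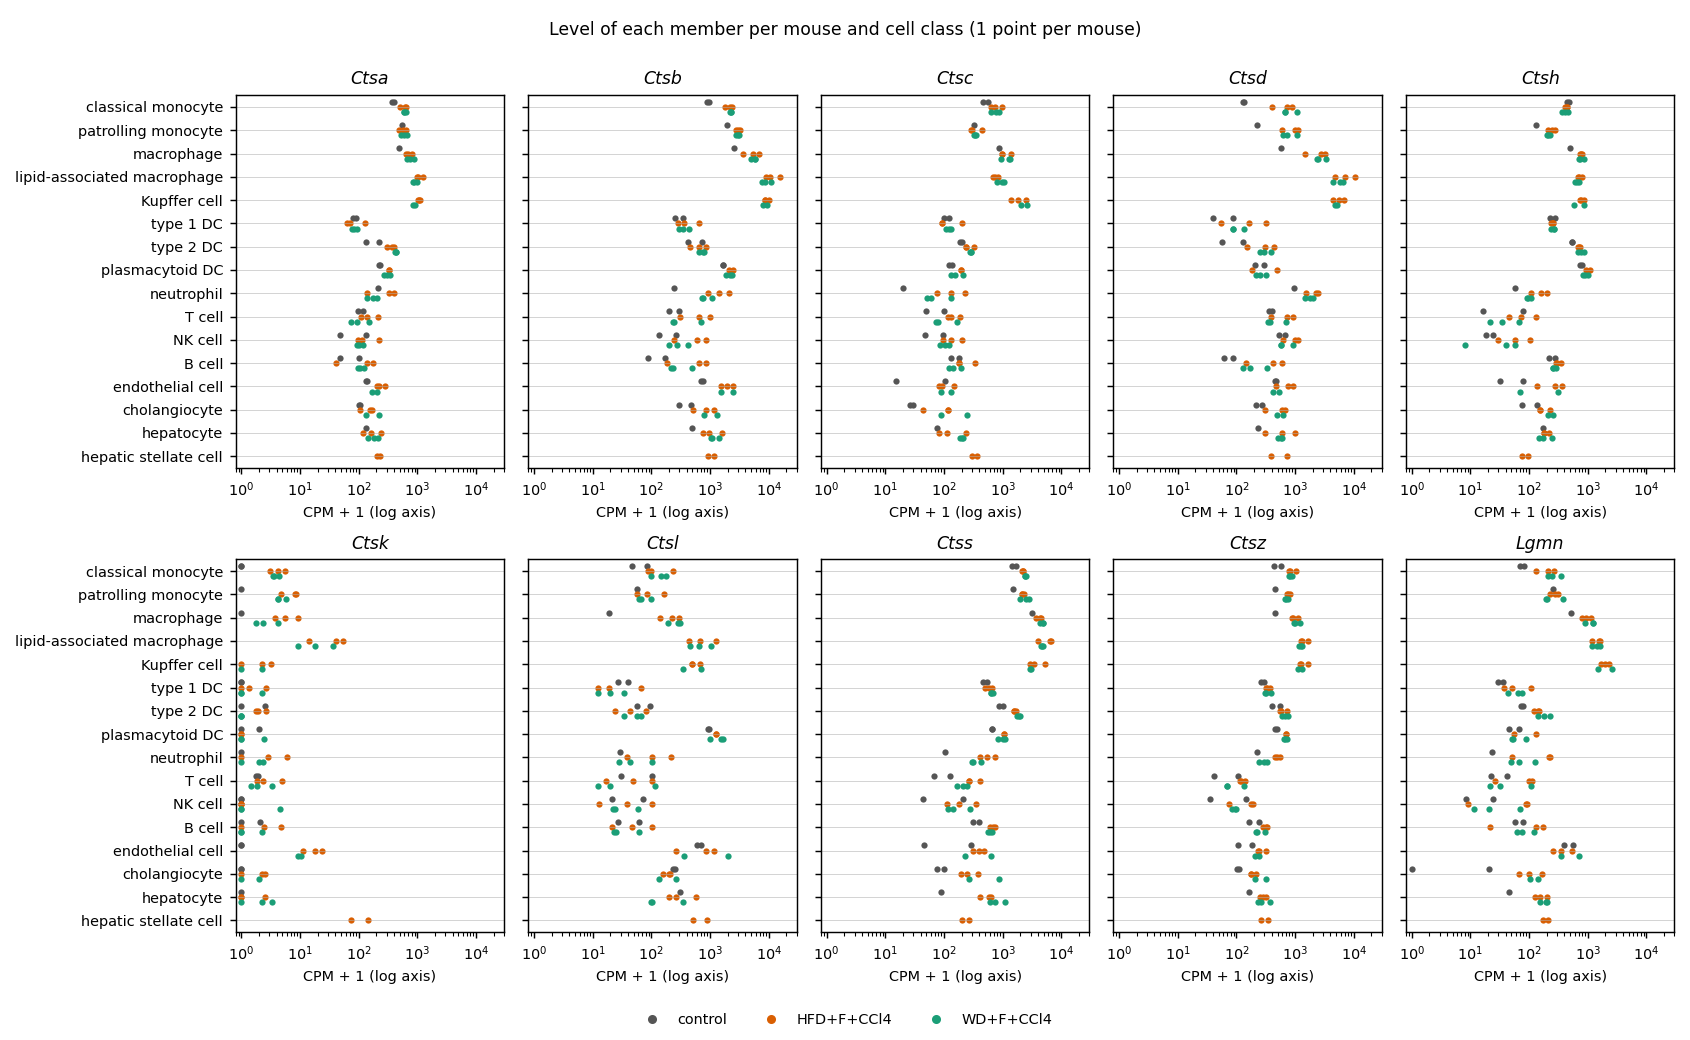
Levels of the 10 genes in each cell class, as CPM + 1 on a log axis, with 1 point per mouse coloured by group. The macrophage classes carry the highest levels of most genes, whereas Ctsl and Ctsh peak in plasmacytoid DCs and Ctsk in hepatic stellate cells.

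Ctsd (GRCm38 chr7:142375911-142388038, minus strand) encodes the aspartic protease of the group and overlaps the gene Gm49369 on the same strand, with which reads may be shared. In lipid-associated macrophages it stood at 10616, 7007 and 4833 CPM in HFD+F+CCl4 mice and at 5883, 4334 and 6419 CPM in WD+F+CCl4 mice, with overlapping groups. Kupffer cells of NASH mice held 4414 to 6705 CPM, macrophages outside both classes 1453 to 3389 CPM and neutrophils 1448 to 2484 CPM. The neutrophil range overlapped the macrophage range, whereas classical monocytes, at 400 to 1077 CPM, were below every neutrophil sum.

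Ctsa (chr2:164832873-164841032, plus strand), a serine carboxypeptidase that also protects lysosomal galactosidase and neuraminidase, did not differ between its 2 highest classes beyond their spread, with 986 ± 114 CPM (SD, n = 5) in Kupffer cells and 984 ± 143 CPM (SD, n = 6) in lipid-associated macrophages. Its range over NASH mice was 504 to 638 CPM in classical monocytes, 305 to 432 CPM in type 2 DCs and 62.6 to 126 CPM in type 1 DCs. Ctsa was thus lower in every NASH mouse in type 1 DCs than in any type 2 DC sum.

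Among the cysteine endopeptidases, Ctsb (chr14:63122462-63145923, plus strand) stood at 15657, 10733 and 8991 CPM in lipid-associated macrophages of HFD+F+CCl4 mice and at 8651, 7750 and 10745 CPM in those of WD+F+CCl4 mice. Both groups lay above the macrophage levels of the same mice (3655 to 6807 CPM). Ctss (chr3:95526786-95556403, plus strand, overlapping the pseudogene Hmgb1-ps5 on the same strand), which works at neutral pH too and trims the invariant chain, reached 4004 to 6695 CPM in lipid-associated macrophages and 3754 to 4939 CPM in macrophages, with overlapping ranges. In DCs Ctss stood at 1588 to 1955 CPM in type 2 DCs, 826 to 1083 CPM in plasmacytoid DCs and 502 to 684 CPM in type 1 DCs.

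Ctsl (chr13:64359337-64370890, minus strand, overlapping the pseudogene Gm49230 on the same strand) had another distribution. Plasmacytoid DCs, the interferon-producing DCs, held 1275 and 1274 CPM in HFD+F+CCl4 mice and 1531, 1014 and 1658 CPM in WD+F+CCl4 mice. Type 2 DCs of the same groups held 22.6 to 81.2 CPM and type 1 DCs 11.1 to 65.3 CPM, so that the DC classes did not overlap with plasmacytoid DCs. Within a mouse the median ratio of plasmacytoid to type 2 DCs was 30.2 (range 25.6 to 56.4, 5 of 5 mice). Endothelial cells of NASH mice varied widely, from 264 to 1993 CPM, and the 2 mice with stellate cells had 510 and 890 CPM.

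Ctsk (chr3:95499256-95509362, plus strand) was highest in stellate cells (141 and 73.7 CPM in HFD+F+CCl4 replicates 1 and 2). Lipid-associated macrophages were the next class, at 52.9, 13.2 and 39.2 CPM in HFD+F+CCl4 mice and 17.2, 8.08 and 35.0 CPM in WD+F+CCl4 mice. Endothelial cells held 8.35 to 22.8 CPM and Kupffer cells 0 to 2.21 CPM.

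The exopeptidases Ctsc, Ctsh and Ctsz remove amino acids from the end of a chain. Ctsc (chr7:88278085-88310888, plus strand), the dipeptidyl peptidase that activates serine proteases of granules, reached 1378 to 2622 CPM in Kupffer cells, above every macrophage sum of NASH mice (936 to 1368 CPM) and every lipid-associated macrophage sum (694 to 1070 CPM). Ctsh (chr9:90054152-90076089, plus strand), an aminopeptidase, stood at 814 to 1085 CPM in plasmacytoid DCs and at 691 to 854 CPM in type 2 DCs, overlapping with macrophages at 713 to 868 CPM. Ctsz (chr2:174427493-174439039, minus strand), a carboxypeptidase, was at 1163 to 1641 CPM in lipid-associated macrophages and 1120 to 1665 CPM in Kupffer cells, with overlapping ranges.

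Lgmn (chr12:102394084-102439813, minus strand) encodes legumain, which cuts after asparagine and activates several cathepsins. Kupffer cells held 1975, 2340 and 1652 CPM in HFD+F+CCl4 mice and 1520 and 2569 CPM in the 2 WD+F+CCl4 mice with at least 20 such cells. Lipid-associated macrophages held 1163 to 1637 CPM and classical monocytes 129 to 350 CPM, with no overlap between the last 2 classes. Plasmacytoid DCs, the class with the highest Ctsl, had 49.9 to 129 CPM of Lgmn.

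Within the macrophages of each NASH mouse the genes separated into groups. The comparison is of classes that were named by other genes, and is given as a ratio within the mouse with no test. Ctsl, Ctsd and Ctsb were higher in lipid-associated macrophages than in macrophages in 6 of 6 mice, by a median ratio of 3.09 (range 2.30 to 4.15), 2.57 (1.74 to 3.33) and 1.94 (1.47 to 2.46). Ctsk was also higher in 6 of 6, with a median ratio of 6.13 on low levels. Lgmn, Ctsa and Ctsz were higher in 6 of 6 by medians of 1.39, 1.33 and 1.31. Ctss had a median ratio of 1.05 (0.949 to 1.46, higher in 5 of 6), and Ctsh of 0.908 (higher in 1 of 6). Ctsc was lower in lipid-associated macrophages in all 6 mice, by a median ratio of 0.755 (0.614 to 0.852). Kupffer cells, in 5 mice, had more Ctsc than lipid-associated macrophages (median ratio 2.61, 1.83 to 2.94, 5 of 5) and more Lgmn (1.40, 5 of 5), and less Ctss (0.635, 0 of 5 higher).

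Few cells recovered from control mice were named macrophages, while 20.2 to 52.7% lay in other clusters that could not be named. Only control replicate 1 had at least 20 macrophages (21 cells). Its macrophage sum had 565 CPM of Ctsd, 2553 CPM of Ctsb, 511 CPM of Lgmn and 18.2 CPM of Ctsl, each below every NASH mouse (lowest 1453, 3655, 798 and 137 CPM). Ctss (3119 CPM), Ctsa (492 CPM), Ctsc (857 CPM), Ctsh (492 CPM) and Ctsz (456 CPM) were likewise below every NASH mouse in that class. The control sum held only 54833 UMIs, so that its Ctsl level is at the floor of detection. With 1 control mouse these differences have no replicate check. The share of all genes that were likewise below every NASH mouse in that class was not counted, so the differences are not read as particular to these genes. The summed level of C1qa, C1qb, C1qc, Lyz2 and Csf1r was also lower in that sum, at 11052 CPM against 16179 to 20856 CPM in NASH mice, and its part was not tested.

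From classical monocytes to macrophages the genes differed in another order. Lgmn had a median ratio of macrophage to monocyte of 4.40, Ctsd of 3.66 and Ctsb of 2.45. Ctss, Ctsh and Ctsl followed at 1.97, 1.83 and 1.78. Ctsc, Ctsa and Ctsz were closest in both classes, at 1.50, 1.25 and 1.16. In patrolling monocytes, the cells that crawl along vessels, Ctsc and Ctsh were at median ratios of 0.457 and 0.534 to classical monocytes of the same mouse, and Ctsb was at 1.36.

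**Figure D2:**
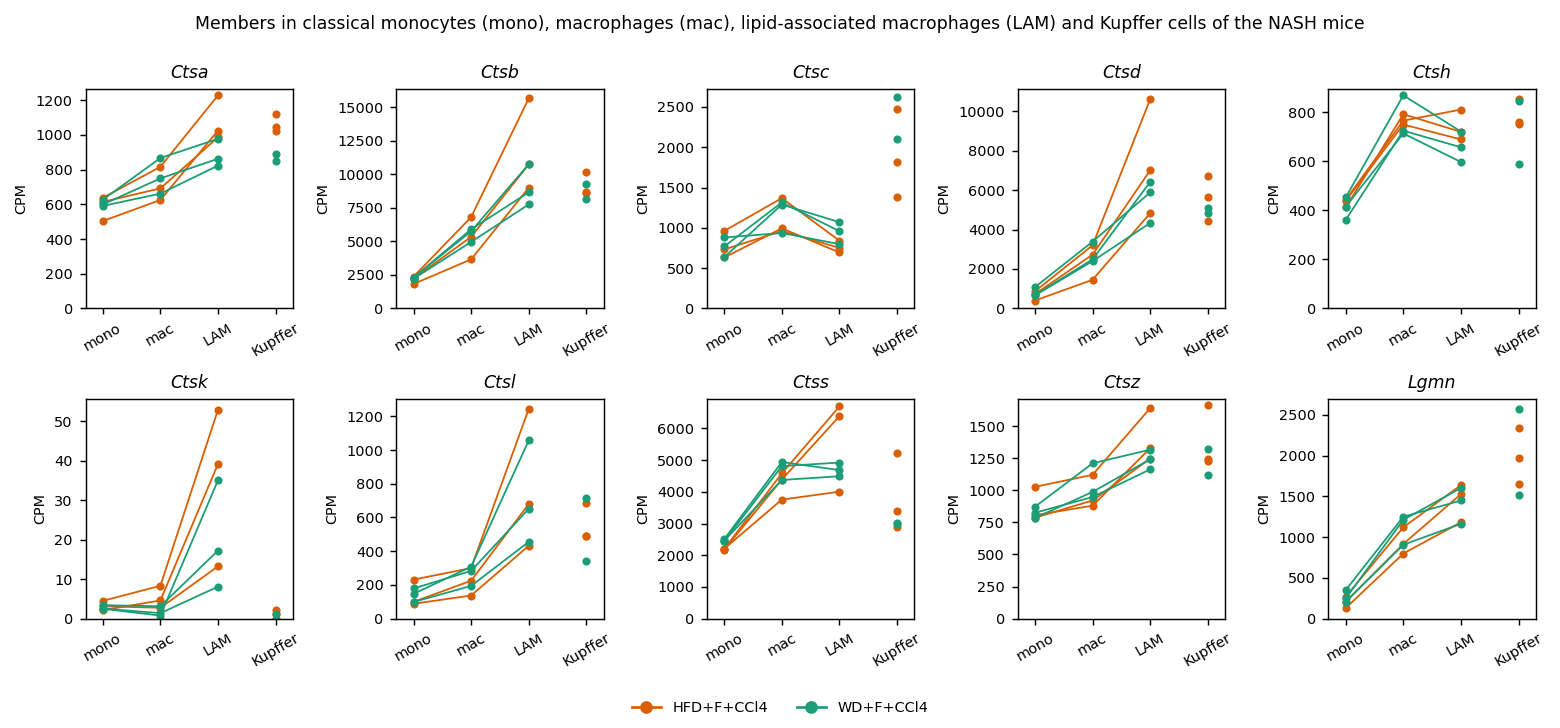
CPM of each gene in classical monocytes, macrophages and lipid-associated macrophages of the same NASH mouse, joined by a line, with Kupffer cells as separate points. In each mouse Ctsd, Ctsb, Lgmn and Ctsl are higher in lipid-associated macrophages than in classical monocytes, while Ctsc is lower there than in macrophages and is highest in Kupffer cells.

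Compared with control mice, classical monocytes, the Ly6c2+ Ccr2+ precursors of macrophages, had higher levels of several members in both NASH models. Both comparisons share the 2 control mice. Of the 10 genes, 4 were called higher in HFD+F+CCl4 mice (Ctsb, Ctsd, Ctsz and Lgmn) and 6 in WD+F+CCl4 mice (these and Ctsa and Ctss), by edgeR's quasi-likelihood test at an adjusted p under 0.05, and none was called lower. Of all 11506 genes tested in this class, 3.02% and 4.54% were called higher. DESeq2 called 6 and 8, adding Ctsa and Ctss in HFD+F+CCl4 mice and Ctsc and Ctsl in WD+F+CCl4 mice. The median log2 fold change of 9 members was 0.86 and 0.80, against 0.03 and 0.03 over all genes tested. Ctsk was left out of that median, since it was at 0 in both control mice and passed the filter on low counts through NASH mice alone.

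The cells of this class differed between the groups. It was 1 cluster at the resolution used, but at a higher resolution 330 and 151 of the monocytes of control replicates 1 and 2 lay in a cluster of 494 cells, which had the hepatocyte genes Mup3 and Serpina3k among its leading genes, and those of NASH mice lay mostly in 2 other clusters. The part of this split in the differences below was not tested. Of the 10 calls, that of Ctsa in WD+F+CCl4 mice was lost at that resolution.

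Ctsd stood at 135 and 127 CPM in monocytes of control mice, at 867, 728 and 400 CPM in HFD+F+CCl4 mice and at 1077, 662 and 676 CPM in WD+F+CCl4 mice. Each NASH mouse was above both controls. The log2 fold change was 2.30 ± 0.35 (SE, adjusted p = 0.00459) and 2.63 ± 0.35 (SE, adjusted p = 0.00107). Ctsb stood at 979 and 888 CPM in controls, 2363, 2220 and 1818 CPM in HFD+F+CCl4 mice and 2289, 2212 and 2299 CPM in WD+F+CCl4 mice, again with no overlap. Its log2 fold change was 1.20 ± 0.20 (SE, adjusted p = 0.00700) and 1.32 ± 0.20 (SE, adjusted p = 0.00213). Lgmn rose from 81.9 and 68.3 CPM to 207, 268 and 129 CPM and to 350, 207 and 247 CPM, by 1.33 ± 0.35 (SE, adjusted p = 0.0433) and 1.78 ± 0.35 (SE, adjusted p = 0.00849) on the log2 scale. Ctsz was at 437 and 571 CPM in controls, 806, 786 and 1027 CPM in HFD+F+CCl4 mice and 872, 825 and 785 CPM in WD+F+CCl4 mice (log2 fold change 0.86 ± 0.20, adjusted p = 0.0286, and 0.80 ± 0.20, adjusted p = 0.0259).

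Of the remaining genes, some passed in 1 model and others in none. Ctss rose in WD+F+CCl4 mice (1663 and 1463 CPM in controls, 2456, 2449 and 2509 CPM in WD+F+CCl4 mice, log2 fold change 0.70 ± 0.19, adjusted p = 0.0417), and its test in HFD+F+CCl4 mice gave 0.51 ± 0.19 (adjusted p = 0.141). Ctsa likewise passed in WD+F+CCl4 mice (0.70 ± 0.17, adjusted p = 0.0225) and not in HFD+F+CCl4 mice (0.62 ± 0.17, adjusted p = 0.0503). Ctsc had 0.62 and 0.63 (adjusted p = 0.106 and 0.0840) and Ctsl 1.25 ± 0.45 and 1.37 ± 0.44 (adjusted p = 0.122 and 0.0728) by edgeR, neither past its threshold, whereas DESeq2 called both in WD+F+CCl4 mice. Ctsh was the member with the smallest difference, at 436 and 483 CPM in controls, 442, 438 and 411 CPM in HFD+F+CCl4 mice and 415, 361 and 452 CPM in WD+F+CCl4 mice (log2 fold change -0.06 ± 0.16 and -0.11 ± 0.16, adjusted p = 0.894 and 0.735). Both Ctsb calls (adjusted p up to 0.0374 and 0.0141) and the WD+F+CCl4 call of Ctsd (up to 0.0259) held when any single mouse was left out. Without control replicate 1 the adjusted p was 0.0580 for Ctsd in HFD+F+CCl4 mice, 0.150 and 0.145 for Ctsz, 0.177 and 0.0810 for Lgmn and 0.0720 for Ctsa, and without control replicate 2 it was 0.135 for Ctss. NASH mice mattered too. Over the 8 mice left out in turn, the call of Ctss held in 1, those of Ctsa in WD+F+CCl4 mice and of Ctsz and Lgmn in HFD+F+CCl4 mice in 3 each, and those of Ctsz and Lgmn in WD+F+CCl4 mice in 4 and 6.

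C1qa, C1qb and C1qc are macrophage genes that also helped name the macrophage class. In classical monocytes of NASH mice they stood at a median of 2.15, 2.49 and 2.43% of the macrophage level of the same mouse. C1qb and Csf1r were called higher in NASH monocytes than in control monocytes in both models. The summed level of C1qa, C1qb, C1qc, Lyz2 and Csf1r went the other way. It was 29723 to 29796 CPM in monocytes of controls, 15935 to 20051 CPM in HFD+F+CCl4 mice and 15116 to 19161 CPM in WD+F+CCl4 mice. In NASH monocytes Ctsd stood at 27.3%, Lgmn at 22.7%, Ctsb at 40.8% and Ctsz at 86.2% of the macrophage level. Control monocytes carried lymphocyte transcripts (Gzma, 72.1 ± 84.0 CPM, SD, n = 2), whose part in these differences was not tested.

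**Figure D3:**
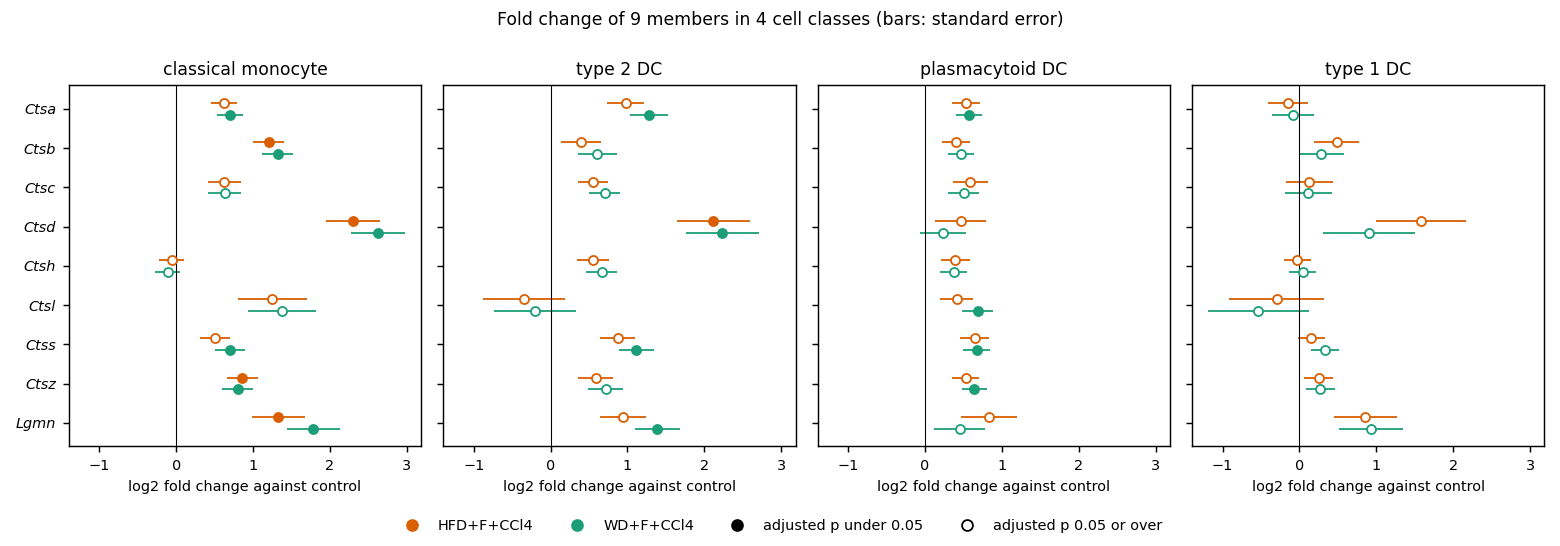
Log2 fold change (edgeR, bars are SE) of 9 genes in each NASH model against control mice, in classical monocytes, type 2 DCs, plasmacytoid DCs and type 1 DCs, filled where the adjusted p is under 0.05. Ctsd has the largest log2 fold change in classical monocytes and type 2 DCs (2.11 to 2.63), and no point is filled in type 1 DCs.

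In DCs fewer members passed. In type 2 DCs, which present antigen to CD4+ T cells, Ctsd was called in HFD+F+CCl4 mice, and Ctsa, Ctsd, Ctss and Lgmn in WD+F+CCl4 mice, of 9 genes tested, where 0.767% and 1.50% of all 11602 genes were called higher. The members' median log2 fold change was 0.58 and 0.71, against 0.08 and 0.06 over all genes. Ctsd stood at 54.9 and 129 CPM in controls, 428, 309 and 148 CPM in HFD+F+CCl4 mice and 385, 246 and 288 CPM in WD+F+CCl4 mice, with HFD+F+CCl4 replicate 3 close to control replicate 2 (log2 fold change 2.11 ± 0.48, adjusted p = 0.0484, and 2.23 ± 0.48, adjusted p = 0.0300). Ctss stood at 1030 and 882 CPM in controls and at 1588 to 1673 and 1791 to 1955 CPM in the NASH groups (0.87, adjusted p = 0.0788, and 1.12 ± 0.23, adjusted p = 0.0254). Ctsa was at 217 and 129 CPM in controls and at 432, 428 and 414 CPM in WD+F+CCl4 mice (1.28 ± 0.25, adjusted p = 0.0199). Lgmn was at 76.3 and 70.5 CPM in controls and at 228, 139 and 179 CPM in WD+F+CCl4 mice (1.39 ± 0.29, adjusted p = 0.0293). Ctsl went the other way by value, with log2 fold changes of -0.35 and -0.20 that were not called. The type 2 DCs of control mice carried more Lyz2, a monocyte and macrophage gene, than those of NASH mice (called lower in NASH mice, -1.89 and -1.71). C1qb was called higher in type 2 DCs of HFD+F+CCl4 mice and was at 0 in those of both control mice. The part of either gene was not tested. Each of these type 2 DC calls was lost when control replicate 1 or control replicate 2 was left out, which leaves 1 control. NASH mice mattered too. Each call was also lost without WD+F+CCl4 replicate 1, and all but that of Lgmn without WD+F+CCl4 replicate 2 (adjusted p = 0.0664 for Ctsa by edgeR). The call of Ctsd in HFD+F+CCl4 mice held only when HFD+F+CCl4 replicate 3 was left out.

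In plasmacytoid DCs edgeR called 0 of 9 members in HFD+F+CCl4 mice, of which 2 had enough cells (6 with an unadjusted p under 0.05, and 1 called by DESeq2), and 4 of 9 in WD+F+CCl4 mice, where 1.30% and 4.39% of all 8338 genes were called higher. Ctsl stood at 968 and 924 CPM in controls and at 1531, 1014 and 1658 CPM in WD+F+CCl4 mice (log2 fold change 0.68 ± 0.20, adjusted p = 0.0420). Ctss was at 665 and 651 CPM in controls and at 826, 997 and 1083 CPM in WD+F+CCl4 mice (0.67 ± 0.18, adjusted p = 0.0231), with HFD+F+CCl4 mice at 1042 and 1051 CPM. Ctsz (0.64 ± 0.16, adjusted p = 0.0207) and Ctsa (0.57 ± 0.17, adjusted p = 0.0467) also passed in WD+F+CCl4 mice. C1qa, C1qb and C1qc were called higher in plasmacytoid DCs in both models, with C1qb at a mean of 3.03 CPM in control, 121 CPM in HFD+F+CCl4 and 50.5 CPM in WD+F+CCl4 mice, and their part was not tested. Each of these 4 calls was lost when control replicate 1 or control replicate 2 was left out, and also when WD+F+CCl4 replicate 3 was left out. Those of Ctsa, Ctss and Ctsz were lost without WD+F+CCl4 replicate 2 as well.

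In type 1 DCs, which cross-present antigen, edgeR called 0 of 9 members in either model (1 with an unadjusted p under 0.05 in each, and 0 called by DESeq2), where 0.703% and 1.56% of all 8249 genes were called higher. Ctsd there had log2 fold changes of 1.59 ± 0.59 (adjusted p = 0.183) and 0.91 (adjusted p = 0.447), on levels of 39.5 and 86.2 CPM in controls, 322, 160 and 53.2 CPM in HFD+F+CCl4 mice and 84.6, 87.1 and 135 CPM in WD+F+CCl4 mice, and the groups overlapped.

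Lymphocyte classes had calls as well. They were among the lower classes for most of these genes, but not for all. Over NASH mice Ctsd averaged 798 CPM in NK cells and 735 CPM in classical monocytes, and Ctsh 288 CPM in B cells and 252 CPM in type 1 DCs. In B cells Ctsb and Ctsd were called higher in HFD+F+CCl4 mice and Ctsb, Ctsd and Ctss in WD+F+CCl4 mice, of 9 tested, where 1.28% and 2.18% of all 8608 genes were called higher. Ctsb stood at 85.9 and 170 CPM in control B cells, 849, 639 and 183 CPM in HFD+F+CCl4 mice and 235, 216 and 500 CPM in WD+F+CCl4 mice (log2 fold change 2.51 ± 0.45, adjusted p = 0.00263, and 1.76 ± 0.44, adjusted p = 0.0211). Ctsd had 2.70 ± 0.43 (adjusted p = 0.000839) and 1.85 ± 0.42 (adjusted p = 0.00983), and Ctss 0.99 ± 0.24 in WD+F+CCl4 mice (adjusted p = 0.0154). DESeq2 called Ctsd and Ctss in HFD+F+CCl4 mice and Ctss alone in WD+F+CCl4 mice. At a higher resolution 2032 B cells of control replicate 1 lay in a cluster of 2168 cells, and most B cells of NASH mice in 2 other clusters. In T cells Ctss was the only member called in either model, at 67.5 and 127 CPM in controls, 410, 271 and 263 CPM in HFD+F+CCl4 mice and 164, 209 and 249 CPM in WD+F+CCl4 mice (1.79 ± 0.27, adjusted p = 0.0166, and 1.37 ± 0.27, adjusted p = 0.0276), where 1.70% and 2.07% of all genes were called higher. The T cell class held 4 clusters, and control replicate 1 had 2261 and 835 of its cells in the clusters led by Cxcr6 and by Tcf7, where few T cells of NASH mice lay. NASH T cells lay mostly in clusters led by Ccl5 and by Ikzf2, so that the groups were compared over different T cells, and the part of this was not tested. In NK cells Ctsb (1.90 ± 0.43, adjusted p = 0.0149), Ctsz (1.81 ± 0.44, adjusted p = 0.0233) and Lgmn (2.99 ± 0.79, adjusted p = 0.0414) were called in HFD+F+CCl4 mice, where 1.87% of all genes were called higher, and edgeR called 0 in WD+F+CCl4 mice (2.47%, 4 with an unadjusted p under 0.05, and 0 called by DESeq2). DESeq2 also called 0 in NK cells of HFD+F+CCl4 mice. Lgmn in NK cells passed the filter through NASH mice alone, and its groups overlapped (7.27 and 23.6 CPM in controls, 91.7, 87.4 and 8.02 CPM in HFD+F+CCl4 mice). All of these lymphocyte calls were lost without control replicate 1, which leaves 1 control. Those of Ctss in B and T cells of WD+F+CCl4 mice and of Ctsz and Lgmn in NK cells were also lost without WD+F+CCl4 replicate 2. The other calls, of Ctsb and Ctsd in B cells, Ctsb in NK cells and Ctss in T cells of HFD+F+CCl4 mice, were lost without control replicate 1 only.

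The macrophage genes C1qa, C1qb and C1qc, which lymphocytes should lack, were measured beside these levels as a gauge of RNA from other cells. They also helped name the macrophage class, so a low percent of its level in other classes was partly set by the naming. In B cells of NASH mice they stood at a median of 3.85, 2.85 and 3.34% of the macrophage level of the same mouse, in T cells at 3.49, 2.83 and 3.66%, and in NK cells at 2.60, 2.03 and 2.64%. Lyz2 and Csf1r stood higher, at 5.19 and 5.46% in B cells, 5.00 and 5.78% in T cells and 5.20 and 6.56% in NK cells. Ctsb was at 6.85% in B cells, 10.3% in T cells and 6.98% in NK cells. Ctss was at 14.3% in B cells but at 5.39 and 3.80% in T and NK cells, and Lgmn at 5.91 and 4.01% in T and NK cells. Ctsd was at 11.5% in B cells, 26.8% in T cells and 35.4% in NK cells, and Ctsh at 37.3% in B cells. The summed level of C1qa, C1qb, C1qc, Lyz2 and Csf1r ranged in B cells from 131 to 810 CPM in controls, 447 to 2056 CPM in HFD+F+CCl4 mice and 365 to 1058 CPM in WD+F+CCl4 mice, in T cells from 197 to 720, 625 to 2056 and 332 to 1077 CPM, and in NK cells from 137 to 757, 449 to 1973 and 312 to 923 CPM. C1qb was called higher in B, T and NK cells of NASH mice together with the members, and its part in their calls was not tested. In DCs C1qa, C1qb and C1qc stood at 1.52 to 2.16% of the macrophage level. Lyz2 and Csf1r were at 14.7 and 24.5% in type 2 DCs, 6.78 and 6.72% in type 1 DCs and 3.10 and 4.06% in plasmacytoid DCs. Ctsl was at 541% and Ctsh at 124% in plasmacytoid DCs, and Ctsh was at 95.7% and Ctss at 38.6% in type 2 DCs. Type 1 DCs had Ctsd at 4.55% and Lgmn at 4.96%.

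**Figure D4:**
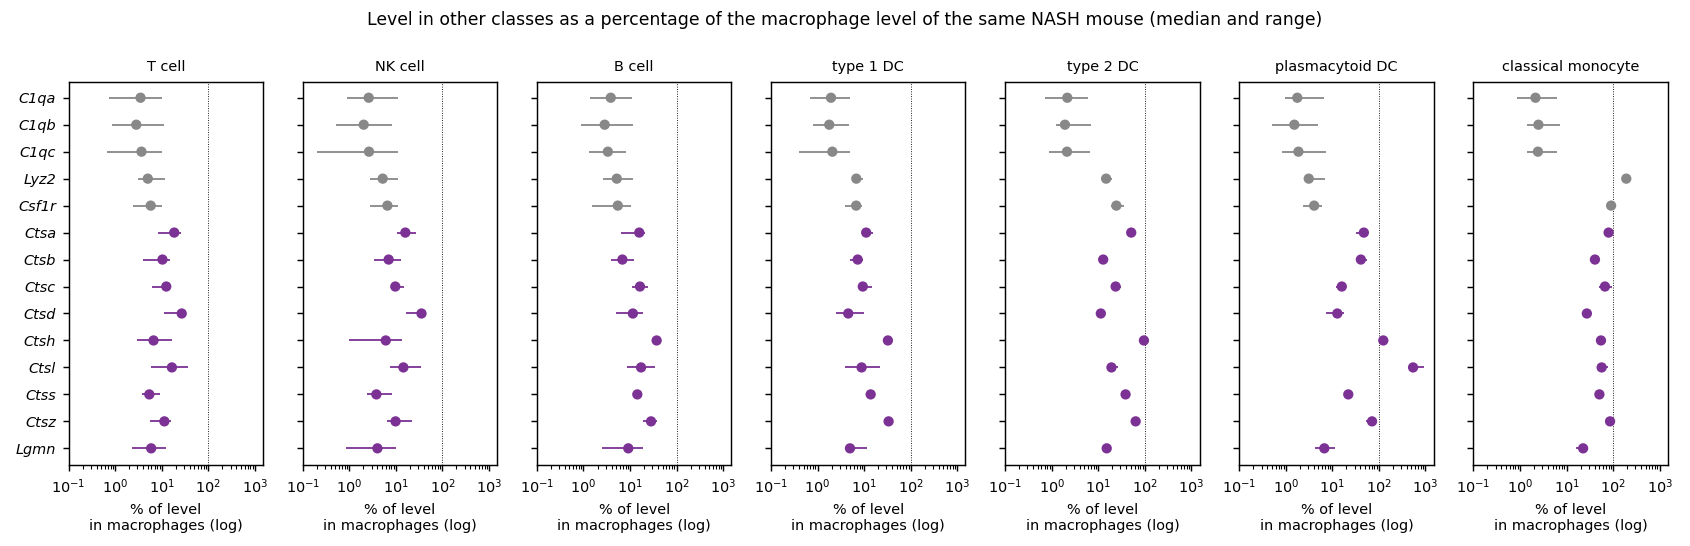
Level in each class as a percent of the macrophage level of the same NASH mouse, on a log axis, with the median and range over mice. Macrophage genes are grey and 9 members purple, and in DC classes and classical monocytes most members lie well above the 3 C1q genes, whereas in T and NK cells several members approach them. The C1q genes helped name the macrophage class, so their low level elsewhere is partly set by that naming.

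In the other classes single members passed. Cycling T cells had Ctss called in HFD+F+CCl4 mice (1.96 ± 0.46, adjusted p = 0.0353, against 1.21% of all genes called higher), and cholangiocytes, the cells of bile ducts, had Ctss called in WD+F+CCl4 mice (2.75 ± 0.58, adjusted p = 0.0456, against 0.299%), at 97.7 and 75.1 CPM in controls and 880 and 270 CPM in 2 WD+F+CCl4 mice. Plasma cells, tested in WD+F+CCl4 mice alone, had Ctsb (1.81 ± 0.29, adjusted p = 0.0175), Ctss (1.64 ± 0.30, adjusted p = 0.0275) and Lgmn (1.62 ± 0.30, adjusted p = 0.0302) called, against 1.04% of all genes. Each of these cycling T cell, cholangiocyte and plasma cell calls was lost without control replicate 1, and those of cholangiocytes and plasma cells without control replicate 2 too. Those of cycling T cells and cholangiocytes were also lost without WD+F+CCl4 replicate 2. In endothelial cells, where 0.0516% of genes were called higher in each model, edgeR and DESeq2 called 0 of 10 members, with 7 and 5 at an unadjusted p under 0.05 by edgeR. Ctsk is among the 7 and the 5, and it passed the filter there through NASH mice alone, so that its direction was set by the filter. Cholangiocytes of HFD+F+CCl4 mice (0.241%) and cycling T cells of WD+F+CCl4 mice (0.654%) had 0 calls by edgeR and 1 each by DESeq2, with 6 and 4 at an unadjusted p under 0.05.

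The cells of the tissue itself carried the genes at other levels. In endothelial cells Ctsb stood at 749 and 704 CPM in controls, 2445, 1949 and 1516 CPM in HFD+F+CCl4 mice and 1559 and 2467 CPM in 2 WD+F+CCl4 mice. Each NASH mouse was above both controls, but the test did not pass (log2 fold change 1.52 ± 0.48, adjusted p = 0.284, and 1.55 ± 0.51, adjusted p = 0.350). Lgmn in endothelial cells overlapped between groups, at 550 and 391 CPM in controls and 255 to 700 CPM in NASH mice. Cholangiocytes had log2 fold changes of 2.78 ± 0.64 and 2.96 ± 0.65 for Lgmn (adjusted p = 0.0863 and 0.0581) and of 1.37 ± 0.40 and 1.71 ± 0.42 for Ctsb (adjusted p = 0.224 and 0.0933), neither past the threshold by edgeR. DESeq2 called Lgmn in HFD+F+CCl4 mice and Ctsb, Ctsc, Ctss and Lgmn in WD+F+CCl4 mice. C1qb was called higher in cholangiocytes in both models. Hepatocytes, which were few (32 to 331 in NASH mice), held 762 to 1598 CPM of Ctsb, 309 to 981 CPM of Ctsd and 124 to 200 CPM of Lgmn.

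Over the classes, 12 of 92 pairs of a member and a class were called in the HFD+F+CCl4 model and 22 of 101 in the WD+F+CCl4 model, each of them higher than control, where 1.22% and 1.91% of all pairs of a gene and a class were called higher. The 12 include Lgmn in NK cells, which passed the filter through NASH mice alone. With the sum of all kept cells, which counts the same cells again, the counts were 21 of 102 and 31 of 111. Counting that sum as a class, Ctss was called in 8 of 12 classes in WD+F+CCl4 mice and in 3 of 11 in HFD+F+CCl4 mice. Ctsb and Ctsd were called in 4 classes in each model, and Ctsl in plasmacytoid DCs of WD+F+CCl4 mice alone. Ctsc, Ctsh and Ctsk were called in 1 class in each model, which was the sum of all kept cells.

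That sum depends on which cells were recovered from the liver, and in it fewer cells of a type and less RNA per cell cannot be told apart. Summed over all kept cells of a mouse, 9 of 10 members were called higher in each model, where 9.63% and 11.0% of all 19787 genes were, and the members' median log2 fold change was 2.66 and 2.83 against -0.01 and -0.06 over all genes. Lgmn stood at 49.8 and 70.7 CPM in controls, 713, 735 and 271 CPM in HFD+F+CCl4 mice and 627, 444 and 916 CPM in WD+F+CCl4 mice (log2 fold change 3.36 ± 0.48, adjusted p = 0.00452, and 3.66 ± 0.49, adjusted p = 0.00306). Ctsb stood at 370 and 527 CPM in controls, 5896, 4200 and 2056 CPM in HFD+F+CCl4 mice and 3809, 3048 and 4797 CPM in WD+F+CCl4 mice (3.28 ± 0.47, adjusted p = 0.00439, and 3.32 ± 0.47, adjusted p = 0.00358). Ctss, at 347 and 370 CPM in controls and 2302 to 2966 CPM in NASH mice, had 2.93 ± 0.25 (adjusted p = 0.00113) and 3.10 ± 0.26 (adjusted p = 0.000939).

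Ctsl was the exception in the sum, at 106 and 238 CPM in controls, 504, 260 and 93.2 CPM in HFD+F+CCl4 mice and 299, 157 and 609 CPM in WD+F+CCl4 mice, with overlapping groups (0.84 ± 0.71, adjusted p = 0.450, and 1.27 ± 0.72, adjusted p = 0.253). The smallest called difference was that of Ctsh, at 164 and 246 CPM in controls and 429 to 533 CPM in NASH mice (1.39 ± 0.18 and 1.42 ± 0.18). Ctsd (2.92 ± 0.57, adjusted p = 0.0131, and 2.95 ± 0.57, adjusted p = 0.0112) and Ctsk (3.74 ± 0.72, adjusted p = 0.0124, and 3.14 ± 0.70, adjusted p = 0.0186, at 0.698 and 0.754 CPM in controls) lost their calls when control replicate 1 or control replicate 2 was left out, with an adjusted p of up to 0.0802 and 0.0708 for Ctsd and 0.0796 and 0.106 for Ctsk. The other 7 genes called kept both calls when any single mouse was left out.

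The cells that supplied these UMIs differed between groups. In NASH mice macrophage classes held a median of 26.0% of kept cells and 35.7% of all UMIs (16.7 to 46.2%), but 70.7% of Ctsd UMIs (36.2 to 82.2%), 70.7% of Lgmn UMIs (48.9 to 79.9%) and 67.0% of Ctsb UMIs (32.3 to 78.1%). For Ctsh, Ctsz and Ctsa their share was 50.6, 51.6 and 53.1%. In control mice macrophage classes gave 0.286 to 3.03% of Ctsb UMIs and DC classes 29.3 to 30.5%. Lymphocyte classes gave 36.5 to 65.2% of Ctsd UMIs of controls, and DC classes 33.1 to 36.8% of Ctsh UMIs. Of all UMIs of control mice, lymphocyte classes held 35.3 to 63.3%, close to their Ctsd share, and DC classes 11.6 to 13.9%.

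**Figure D5:**
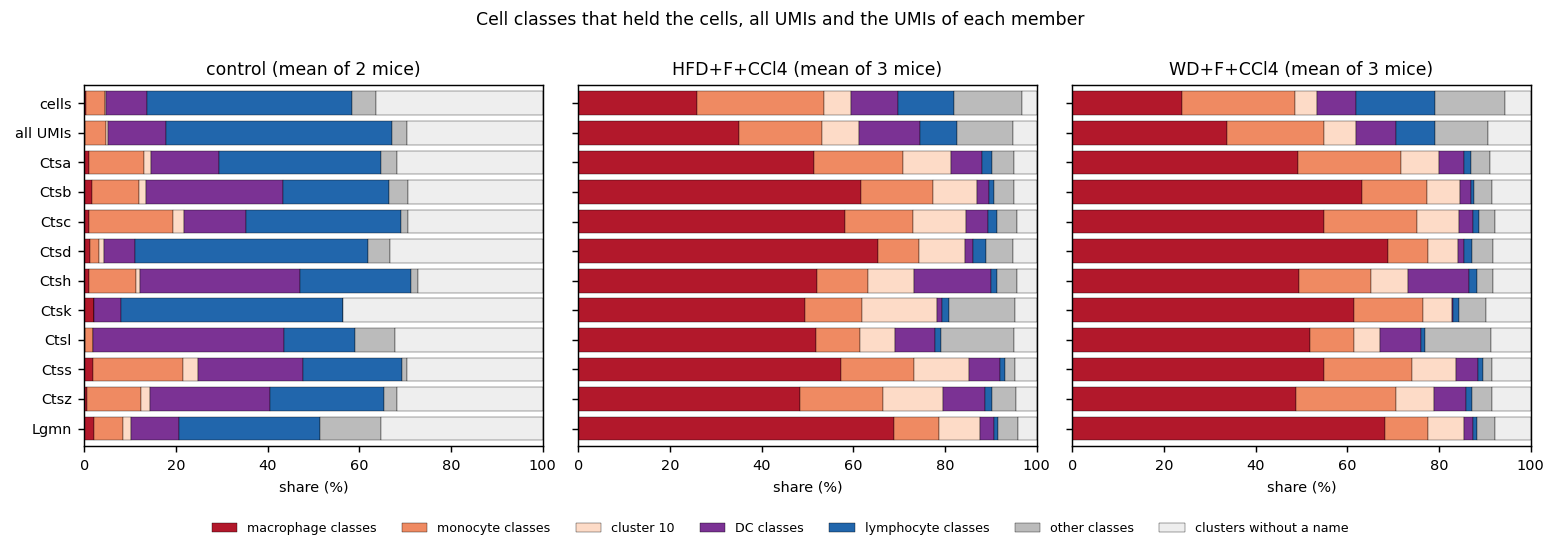
Shares of cells, of all UMIs and of the UMIs of each gene by group of classes, as stacked percent, mean over the mice of a group. In both NASH models macrophage classes take a larger share of the UMIs of each of the 10 genes than of all UMIs, and in control mice they are a thin part of every bar.

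Between the WD+F+CCl4 and HFD+F+CCl4 models edgeR called 0 of 188 pairs of a member and a class, of which 9 had an unadjusted p under 0.05, and DESeq2 called 0, with 6. Of all genes tested, 0.163% were called in B cells, 0.0480% in plasmacytoid DCs, 0.0174% in classical monocytes, 0.0140% in cluster 30 (a cluster without a name led by granule genes such as Elane and Mpo), 0.00862% in type 2 DCs and 0% in the others, lipid-associated macrophages, macrophages and Kupffer cells included. The spread among the 3 mice of a group was wide. Over the 15 classes held by all 6 NASH mice, HFD+F+CCl4 replicate 1 had the highest level of Ctsb in 14, of Ctsd and Ctsc in 12 each and of Ctsa in 11. HFD+F+CCl4 replicate 3 had the lowest level of Ctsl in 11, of Ctsd in 10 and of Ctsa and Lgmn in 9 each. Ctsh was highest in WD+F+CCl4 replicate 3 in 7 classes and in HFD+F+CCl4 replicate 1 in 6, and lowest in WD+F+CCl4 replicates 1 and 2 in 7 each.

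Other genes of the pathway were taken from lists and examined in classical monocytes, type 1 and type 2 DCs and plasmacytoid DCs. Most calls of these genes rested on the controls, since without control replicate 1 34 of 41 calls no longer passed (the macrophage genes named above included), and without control replicate 2 the number was 17 of 41. Of all genes tested, 3.02% and 4.54% were called higher in classical monocytes (HFD+F+CCl4 and WD+F+CCl4) and 0.767% and 1.50% in type 2 DCs. In plasmacytoid DCs 1.30% and 4.39% were, and in type 1 DCs 0.703% and 1.56%. With so few pairs in a list, 1 call is not read as a result about the list. Of the cystatins, which inhibit cysteine cathepsins, 1 of 10 pairs of gene and class rose in the HFD+F+CCl4 model and 2 in the WD+F+CCl4 model. These were Cstb (stefin B) in classical monocytes (1.08 ± 0.21, adjusted p = 0.0163, and 1.14 ± 0.21, adjusted p = 0.00689) and Cst7 in type 2 DCs of WD+F+CCl4 mice (2.12 ± 0.46, adjusted p = 0.0314). Of sorting genes, 0 and 3 of 30 pairs rose, all in classical monocytes of WD+F+CCl4 mice: Igf2r, the mannose 6-phosphate receptor (2.29, adjusted p = 0.0134), Grn (0.96, adjusted p = 0.0256) and Nagpa, the enzyme that uncovers the mannose 6-phosphate tag (0.76, adjusted p = 0.0277). Of the transcription factors Tfeb, Tfe3, Tfec and Mitf, 0 and 1 of 12 pairs rose, Tfeb in classical monocytes of WD+F+CCl4 mice (0.80, adjusted p = 0.0324, with means of 39.5 CPM in control and 69.8 CPM in WD+F+CCl4 mice).

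Genes called lower in the HFD+F+CCl4 and WD+F+CCl4 models numbered 371 and 570 of 11506 in classical monocytes and 125 and 214 of 11602 in type 2 DCs. They numbered 247 and 471 of 8338 in plasmacytoid DCs and 228 and 274 of 8249 in type 1 DCs. Of membrane and lipid transfer genes, 1 of 23 pairs rose in HFD+F+CCl4 mice (Cd63 in classical monocytes, 1.73, adjusted p = 0.0325), and in WD+F+CCl4 mice 1 rose (Lamp2 in classical monocytes, 0.79, adjusted p = 0.0238) and 1 fell (Cd63 in type 2 DCs, -2.27, adjusted p = 0.0314). The partners of Ctsa, Glb1 and Neu1, and Cd74, the invariant chain, had no call by edgeR in these classes. Of the other cathepsins, 3 of 10 pairs fell in each model, all of them Ctsw, a cathepsin of cytotoxic lymphocytes (-6.29 and -4.74 in classical monocytes, -4.08 and -4.51 in type 1 DCs, -1.98 and -1.69 in plasmacytoid DCs), and 1 rose in WD+F+CCl4 mice, Ctso in plasmacytoid DCs (0.77, adjusted p = 0.0238). Of the granule proteases that Ctsc activates, Prtn3 rose in classical monocytes in both models (4.60 and 4.65). Gzma fell in type 2 DCs in both models, and in classical monocytes and plasmacytoid DCs in WD+F+CCl4 mice. Ctsw and Gzma are lymphocyte genes, and lymphocyte classes held 28.0 to 61.4% of control cells but 6.24 to 18.8% of NASH cells. The part of lymphocyte RNA in the falls of both genes was not tested. Elane was called in classical monocytes of WD+F+CCl4 mice and was at 0 in both controls. In the sum of all kept cells 5 of 6 membrane and lipid transfer genes were called higher in the HFD+F+CCl4 model and 6 of 6 in the WD+F+CCl4 model, with 6 of 8 sorting genes and 3 of 4 transcription factors in each model. Of all genes tested in that sum, 9.63% and 11.0% were called higher.

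The genes whose levels were most like those of a member were found by Pearson's r of log2(CPM + 1) over 146 sums of a mouse and class (22 classes, 7094 genes), as a description, since the sums share libraries and cell types. Cd68, a lysosomal membrane protein of macrophages, was among the 3 most alike for Ctss (0.93), Ctsz (0.94), Ctsb (0.88) and Ctsa (0.88). Grn, the precursor of granulins, was the most alike for Ctsb (0.92), followed by Lamp1 (0.88), and was among the 3 for Ctsl (0.72), after Itsn1 (0.77) and Tpp1 (0.75). For Ctsd the first was Gpnmb (0.83), which is also a marker that named lipid-associated macrophages. Lgmn was most like Msr1 (0.89), a scavenger receptor. Ctsc was most like Fcgr1 (0.83) and Pla2g15 (0.83), and Ctsh like Ly86 (0.91). Ctsk had weaker likeness (Emp1 0.66, Ecm1 0.63, Ednrb 0.61).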

How the data were processed

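Livers were digested to single cells, and libraries were made with the 10x Chromium 3′ V3 kit. Per the labels and methods, the authors ran bcl2fastq 2.20 and Cell Ranger against GRCm38. The deposited values are UMI counts per gene and barcode, not normalized. From these counts, cells were clustered (2000 variable genes, 30 principal components, 20 neighbours, Leiden resolution 1, Python 3.11.15, leidenalg 0.10.2) and named from marker lists. Thresholds of naming were set after the data were seen. Clusters with over 50% predicted doublets stayed unnamed, and other doublets stayed in. Counts were summed per mouse and class of at least 20 cells and tested with edgeR 4.0.16 (TMM, filterByExpr with a minimum count of 10, glmQLFTest, 1 fit of 3 groups), with Benjamini-Hochberg adjustment over all genes of a class and a threshold of 0.05. The SE given for edgeR is the absolute log2 fold change divided by the square root of its F statistic. DESeq2 1.42.0 was an alternative. The members and lists were chosen with earlier results of these data known. Named genes were all 10 members, up to 3 called genes per list, direction and comparison in monocyte and DC classes, and the 3 genes most alike to a member. Gene positions are from GENCODE M21, matched by identifier for 55450 of 55450 genes. Each mouse is 1 library, with 6135827 to 64855024 UMIs. The test was run on simulated counts for some classes, with the same spread set for every gene. That simulation held no unlike mice and no differing make-up of cells between groups, so it does not bear on those.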

Additional observations from a re-analysis of the deposited data

Results flagged for a closer look

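In 3 cases every mouse of a NASH group lay on the other side of the controls in 1 class than in other classes, and the difference between classes was not tested. None of the 3 was called in the class that went the other way. The share of all genes with such a pattern was not counted, so the cases are not read as particular to these genes. Ctsa in plasma cells was at 108 and 101 CPM in controls and at 76.7 and 80.7 CPM in 2 WD+F+CCl4 mice, while it was higher than control in every WD+F+CCl4 mouse in classical monocytes, type 2 DCs and plasmacytoid DCs. Its log2 fold change in plasma cells was 0.15 after scaling between libraries, of the other sign than the CPM. Ctsh in plasma cells was at 130 and 195 CPM in controls and at 101 and 109 CPM in WD+F+CCl4 mice (log2 fold change -0.022), while it was higher in every WD+F+CCl4 mouse in plasmacytoid and type 2 DCs. Ctsl in cholangiocytes was at 231 and 250 CPM in controls and at 206, 198 and 160 CPM in HFD+F+CCl4 mice (log2 fold change -0.21), while it was higher in every HFD+F+CCl4 mouse in classical monocytes and plasmacytoid DCs.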

How the results depend on the processing

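With 2 control mice, the calls against control rested on few libraries. Counting the sum of all kept cells as a class, 52 pairs of a member and a class were called. All 52 kept a log2 fold change above 0 under all alternatives, but they were picked as higher in these same data. Of them, 17 kept their call under all alternatives, mostly in that sum. Within cell classes these were only both Ctsb calls and the WD+F+CCl4 call of Ctsd, in classical monocytes. Leaving out 1 mouse gave 8 to 23 calls in HFD+F+CCl4 mice (21 with all mice), lowest without control replicate 1, and 10 to 34 in WD+F+CCl4 mice (31 with all mice), with 10 without control replicate 1, 16 without control replicate 2 and 20 without WD+F+CCl4 replicate 2. Between the models it gave 0 to 4, with 3 without HFD+F+CCl4 replicate 2, 1 without its replicate 3 and 4 without WD+F+CCl4 replicate 3. A left-out control leaves 1, assumed to vary like the other groups. Testing all genes with at least 1 count gave 45, 50 and 4 calls (HFD+F+CCl4, WD+F+CCl4, between the models), and keeping cells with more than 1000 genes gave 10 of 46 and 16 of 55 pairs, fewer pairs being tested. The other causes were not tested. DESeq2 gave 25, 37 and 0 calls. With the replicate number as a block the counts were 22, 24 and 0. Same-numbered mice were not treated as pairs in the main test. Their deviations correlated from -0.651 to 0.173, and those of other pairs of mice from -0.508 to 0.660. With 2 or 3 mice per group these values cannot exclude a pairing. The class of the highest level stayed for 9 to 10 of 10 members. Levels of Ctsk, and of all members in classes of few cells (21 B cells and 38 Kupffer cells in HFD+F+CCl4 replicate 3), are limited by depth.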

Other observations

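Members were also measured in clusters without a cell type name. Cluster 10, led by Il1rn, F10, Ccl24 and Clec4n, scored alike for more than 1 type and held 117 to 1235 cells per NASH mouse. Its levels lay between those of classical monocytes and lipid-associated macrophages for Ctsb (2617 to 4329 CPM) and Ctsd (1109 to 2187 CPM), and its Ctss stood at 3391 to 4128 CPM and its Lgmn at 313 to 821 CPM. At a higher resolution a cluster led by the same genes had 22.8% predicted doublets. The clusters of most NASH classical monocytes had 1.55 and 7.07%, and the largest lipid-associated macrophage cluster 5.69%. The part of doublets in these levels was not tested. Cluster 30, led by the granule genes Elane, Prtn3 and Mpo, held 50 to 114 cells per NASH mouse. Ctsc, which activates the proteases of such granules, stood there at 580 to 978 CPM, overlapping with classical monocytes (632 to 961 CPM), while Ctsb (368 to 1150 CPM), Ctsd (245 to 687 CPM), Ctss (383 to 760 CPM) and Lgmn (42.8 to 91.9 CPM) had medians below those of classical monocytes. In the 1 control mouse with at least 20 cells of cluster 30, Ctsc was at 46.5 CPM, on very few molecules in a sum of 64505 UMIs. The summed level of C1qa, C1qb, C1qc, Lyz2 and Csf1r there was 186 CPM. In HFD+F+CCl4 mice it was 6169 to 9206 CPM and in WD+F+CCl4 mice 4177 to 7577 CPM, so that the cells compared differed. The part of this was not tested. Cycling macrophages, a named class, varied widely between mice, with Ctsd from 510 to 5780 CPM and Ctsl from 41.7 to 766 CPM.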
